A study of Mus musculus with 6 samples.

Results

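The SOCS family of suppressors of cytokine signalling was described in the mouse mammary carcinoma line 4T1, as the 8 genes Socs1, Socs2, Socs3, Socs4, Socs5, Socs6, Socs7 and Cish out of 56448 genes in the table. They were taken by gene symbol, and each symbol matched 1 row. Messenger RNA was sequenced from 6 libraries, 3 of genotype LV2 and 3 of genotype in9. The cells of both groups are 4T1 cells grown in medium with fetal bovine serum, and the series describes lentiviral, stable knockdown of the microRNA miR-9 beside a control group. Neither genotype name is spelled out and the labels do not say which group is the control; a difference below is always the in9 value minus the LV2 value. The series text speaks of array hybridization, whereas its type and its table are of sequencing. The labels do not give the vector, its promoter or whether either line is 1 clone.

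The proteins of this family share a central SH2 domain, which binds phosphorylated tyrosines, and a C-terminal SOCS box, which recruits the elongin B/C and cullin 5 ubiquitin ligase. Cytokine receptors activate Janus kinases, these phosphorylate STAT transcription factors, and the STATs induce several SOCS genes, so that the family closes a negative feedback loop. In mammary tissue the family is known for restraining prolactin, interferon and interleukin-6 type signals. MicroRNAs such as miR-9 pair through their seed (bases 2 to 8) with sites in 3′ UTRs and lower the target transcript or its translation, and Socs5 is a reported miR-9 target.

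The seed of miR-9 and the sites that match it in the family are shown because miR-9 may pair with transcripts that carry them. Whether these sites had any part in the values below was not tested. Mature sequences came from RefSeq (GRCm38.p6), and 3′ UTRs from the GENCODE M21 annotation of mm10. Capitals mark the seed in the microRNA and the matching bases in the transcript, written 5′ to 3′ on the strand of the gene.
miR-9-5p: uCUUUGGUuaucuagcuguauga
Socs5 8mer site, chr17:87137050-87137079, plus strand: gatgcagacctttaACCAAAGActtgttca
Socs5 7mer-m8 site, chr17:87137140-87137168, plus strand: cctgaggaacatatACCAAAGtgtctgag
Socs3 7mer-A1 site, chr11:117967050-117967078, minus strand: ggtttttatgctggCCAAAGAaataacca

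Of the 8 genes, 2 carried a match to the miR-9-5p seed in the longest annotated 3′ UTR, namely Socs5 and Socs3. The search used the 7-base match ACCAAAG (7mer-m8), the 7-base match CCAAAGA (7mer-A1) and the 8-base match ACCAAAGA (8mer) that joins them, on the transcript strand. Socs5 (chromosome 17, positions 87107679 to 87137839 in mm10) held an 8mer at base 1820 and a 7mer-m8 at base 1910 of a 3′ UTR of 2595 bases. Socs3 (chromosome 11, positions 117966079 to 117970047) held a 7mer-A1 at base 489 of 1474. At least 1 such match was present in 35.3% of the 1503 tested genes whose 3′ UTR was within 20% of the length of that of Socs5, and at least 2 in 7.98%. For 3′ UTRs like that of Socs3 the share with a match was 23.9% of 1660 genes. It was 56.5%, 50.5% and 56.4% for 3′ UTRs like those of Socs4, Socs6 and Socs7, which held no miR-9-5p match. For those like Socs1, Socs2 and Cish, also without a match, it was 27.9%, 20% and 30.3%. Among all tested genes with a 3′ UTR the share was 22.2%. Matches to the seed of the other arm, miR-9-3p, were present in Socs4 (an 8mer at base 3201 of 5182) and Socs6 (a 7mer-m8 at base 1463 of 4019). The share of other genes with a miR-9-3p match is not given here, so these matches are only a description of the letters. No match to either seed was found in these windows of Socs1, Socs2, Socs7 and Cish.

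**Figure D1:**
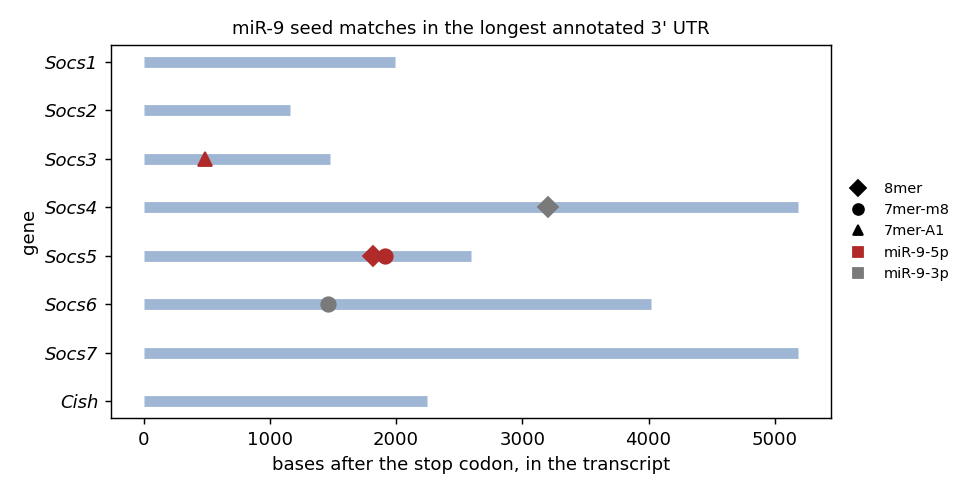
Position of seed matches of miR-9-5p (red) and miR-9-3p (grey) along the 3′ UTR (longest annotated form, per gene), in bases after the stop codon; marker shapes give the kind of match and blue bars the length of the 3′ UTR. The Socs5 matches at bases 1820 and 1910 are close together, and the single miR-9-5p match of Socs3 is at base 489.

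Values were TPM, transcript abundances scaled by transcript length to a fixed total, so the sequencing depth behind each value is unknown. Between 20123 and 20538 genes were above 0 in a library, and all 12 housekeeping genes checked were above 0 in every library. The epithelial identity of the cells was checked on 10 markers, of which 9 had a mean TPM of at least 1, and which summed to between 2412.48 and 2469.8 TPM in LV2 libraries and between 2312.79 and 2364.75 TPM in in9 libraries; the basal keratin gene Krt5, at 0 to 0.03 TPM, was the exception. Leukocyte markers summed to 28.32 to 30.01 TPM in LV2 and 34.67 to 41.15 in in9, nearly all of it the lysosomal gene Cd68 (27.48 to 28.77 and 33.55 to 40.56 TPM), with Adgre1, Laptm5 and Tyrobp at 0 and 1 of 12 reaching a mean TPM of 1. Fibroblast markers summed to 4.74 to 6.76 and 7.95 to 8.43 TPM, nearly all of it Pdgfra, with Lum at 0. Endothelial markers summed to 3.42 to 3.6 and 3.62 to 4.0 TPM, with Cldn5 and Emcn at 0. Most of that sum was Cdh5 (1.46 to 1.81 TPM over all libraries) and Tie1 (1.07 to 1.46 TPM), the 2 of 8 that reached a mean TPM of 1. The share of mitochondrial transcripts was 5.9% to 6.01% in LV2 libraries, and 6.42%, 7.64% and 7.49% in in9 replicates 1, 2 and 3. The median difference from the LV2 mean over all tested genes was 0.0 on the log2 scale in in9 replicate 1, against 0.08 and 0.09 in replicates 2 and 3, and 1480 genes were called without replicate 1, against 136 with it. The part of these differences in the results below was not tested, and in bulk RNA a change in the number of cells of a type cannot be told apart from a change in RNA per cell. Nothing states that the replicates were separate cultures, and p-values therefore measure only how these libraries vary, which may be technical variation.

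All 8 genes were expressed in 4T1 cells, with a mean TPM of at least 1, and all entered the test. In LV2 the order of mean TPM was Socs6 (43.4), Socs3 (20.5), Socs5 (20.1), Socs4 (12.5), Socs7 (7.99), Socs1 (5.68), Cish (3.79) and Socs2 (2.79). The LV2 ranges of the neighbours Socs3 and Socs5 overlapped, as did those of Cish and Socs2, and the other neighbours were apart. In in9 the order was Socs6 (39.1), Socs3 (30.3), Socs5 (25.8), Socs4 (13.9), Socs7 (8.18), Socs2 (4.75), Socs1 (4.61) and Cish (3.52). There the ranges of Socs3 and Socs5 overlapped again, and those of Socs2 and Socs1. Levels between genes rest on the length used for each, which the sources used here do not explain. The table lists 2921 bases for Socs6, whose longest coding transcript in GENCODE M21 has 6036, and 4242 bases for Socs2, whose longest coding transcript has 2222.

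**Figure D2:**
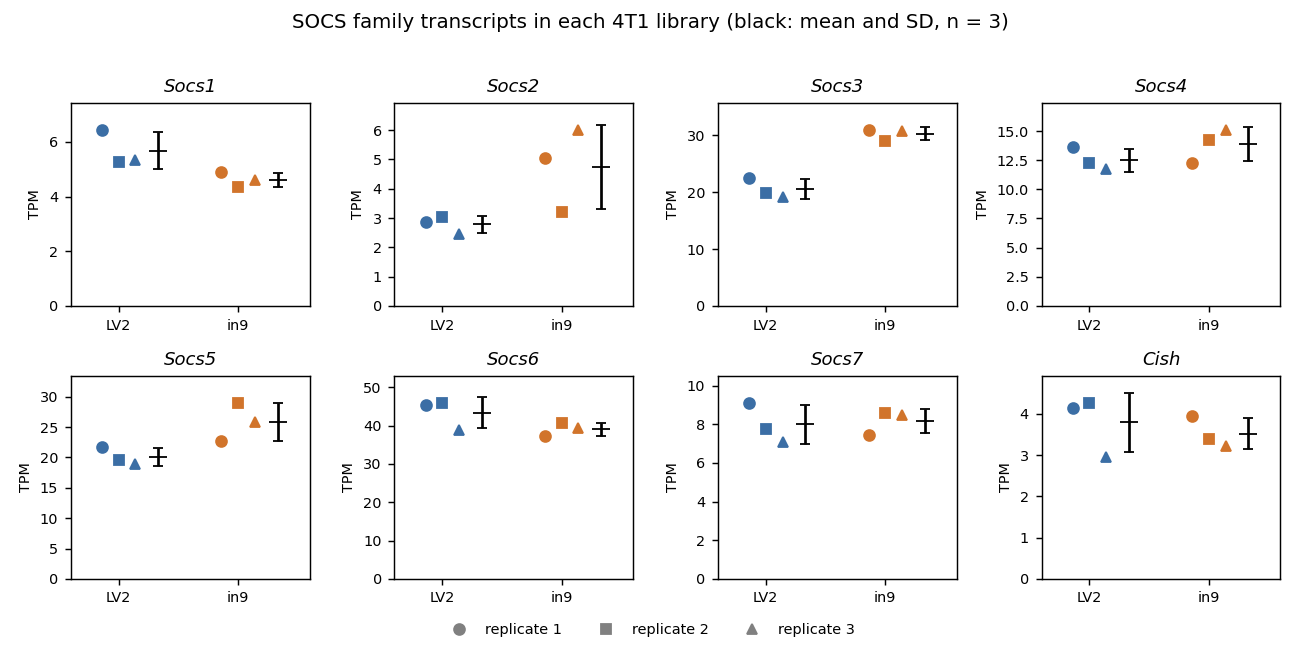
TPM of each SOCS family gene in the 3 LV2 (blue) and 3 in9 (orange) libraries, with marker shapes for the replicate number and black bars for mean and SD; each axis starts at 0. The in9 points lie above the LV2 points in Socs2, Socs3 and Socs5 and below them in Socs1.

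The comparison of in9 with LV2 asked which family members differed between the groups. Of the 8 genes, 1 rose, Socs3, and none fell at an adjusted p under 0.05 in limma, a linear model fitted over all 13406 tested genes with Benjamini-Hochberg adjustment. Over all tested genes 0.821% were called higher and 0.194% lower. Without adjustment, at a p under 0.05 in the main fit, Socs2, Socs3 and Socs5 were higher and none of the 8 was lower. Of all tested genes 13.6% were higher and 5.86% lower there. The absence of lower members depended on the settings. After trimmed-mean scaling Socs1 (log2 fold change -0.32) and Socs6 (-0.22) passed the same cutoff as lower in limma. After quantile normalization both did again (-0.37 and -0.19), and Socs2 (0.45) no longer passed. Socs1 (-0.25) also passed without the intensity trend, and Socs6 (-0.22) without LV2 replicate 3. The in9 libraries were all above the LV2 libraries in Socs2, Socs3 and Socs5 (17.4% of all tested genes) and all below them in Socs1 (8.08%). The log2 fold change was positive in 5 members and negative in 3, with a median of 0.08. Of all tested genes 63.7% had a positive fold change, and their median was 0.06. With 1 added to each TPM before taking log2, fold changes of low genes such as Socs2 come out too small.

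**Figure D3:**
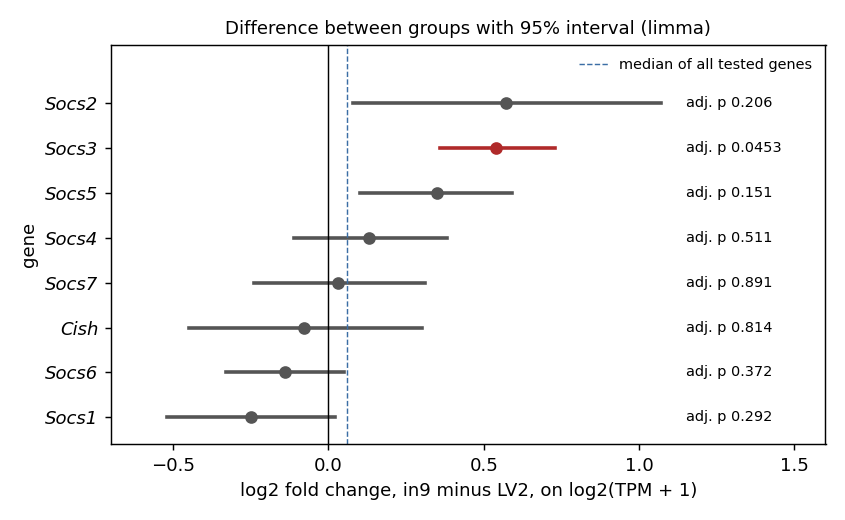
Log2 fold change of each gene, in9 minus LV2 on log2(TPM + 1), with its 95% interval from limma and the adjusted p; red marks an adjusted p under 0.05 and the dashed line the median of all tested genes (0.06). The interval of Socs3 runs from 0.36 to 0.73, and those of Socs4, Socs7, Cish, Socs6 and Socs1 include 0.

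Socs3, which binds receptors of the interleukin-6 type through its SH2 domain and inhibits the attached Janus kinases through a kinase inhibitory region, had 22.54, 19.8 and 19.22 TPM in LV2 replicates 1 to 3 and 31.03, 28.99 and 30.82 TPM in in9. All in9 libraries were above all LV2 libraries, and the libraries of each group were close to each other. The mean rose from 20.5 ± 1.77 to 30.3 ± 1.12 TPM (SD, n = 3), which is 1.48 times the LV2 mean. Its log2 fold change was 0.54 ± 0.08 (SE), and the adjusted p in limma was 0.0453, at rank 74 of all tested genes by p. The adjusted p was 0.0558 after trimmed-mean scaling, 0.0799 without a filter on low values and 0.0697 without the intensity trend. It was 0.0266 without in9 replicate 1 and between 0.0922 and 0.192 when any other single library was left out, with log2 fold changes of 0.5 to 0.61 over the 6 omissions.

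Socs1, the other member with a kinase inhibitory region and a main brake on interferon signalling, had 6.45, 5.25 and 5.35 TPM in LV2 and 4.89, 4.36 and 4.59 TPM in in9. The groups did not overlap, although the highest in9 library was close to the lowest LV2 library. The log2 fold change was -0.25 ± 0.11 (SE, 95% interval -0.52 to 0.02) with an adjusted p of 0.292 in limma, so Socs1 was not called. Within each library the ratio of Socs3 to Socs1, a pair set side by side after the values were seen, ranged from 3.49 to 3.77 across LV2 and from 6.35 to 6.71 across in9.

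Socs2, which restrains growth hormone signalling, had 2.88, 3.03 and 2.47 TPM in LV2 and 5.04, 3.2 and 6.02 TPM in in9. In9 replicate 2 was close to LV2, and the other in9 libraries were well above it. The log2 fold change was 0.57 ± 0.21 (SE, interval 0.08 to 1.07), with an adjusted p of 0.206 in limma. It was 0.78 without in9 replicate 2 (adjusted p = 0.171 in limma) and 0.41 without in9 replicate 3 (adjusted p = 0.443). Cish, a STAT5 target and the founding member of the family, had 4.14, 4.27 and 2.96 TPM in LV2 and 3.95, 3.39 and 3.21 TPM in in9. Its groups overlapped, and its log2 fold change was -0.08 ± 0.16 (SE, interval -0.45 to 0.3, adjusted p = 0.814 in limma).

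Socs5, the reported miR-9 target, which has been tied to the EGF receptor, had 21.73, 19.6 and 18.88 TPM in LV2 and 22.71, 29.04 and 25.8 TPM in in9. Every in9 library was above every LV2 library, but in9 replicate 1 exceeded LV2 replicate 1 only slightly. The means were 20.1 ± 1.48 and 25.8 ± 3.17 TPM (SD, n = 3), a ratio of 1.29. The log2 fold change was 0.35 ± 0.10 (SE, interval 0.1 to 0.59), and with an adjusted p of 0.151 in limma Socs5 was not called. Without in9 replicate 1 it was 0.43 (adjusted p = 0.0404), a fit in which 7.25% of all tested genes were called higher, among them Socs3 and Socs5 of the 8 members. With weights estimated per library it was 0.43 as well (adjusted p = 0.0271), where 8.7% of all tested genes were called higher, again with Socs3 and Socs5 of the 8 members. Without any other single library its adjusted p was between 0.202 and 0.375.

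Socs4, the closest relative of Socs5, ranged from 11.71 to 13.65 TPM across LV2 and from 12.25 to 15.13 TPM across in9. Its log2 fold change was 0.13 ± 0.10 (SE, interval -0.11 to 0.38, adjusted p = 0.511 in limma). Within each library Socs5 was 1.59 to 1.61 times Socs4 in LV2 and 1.71 to 2.05 times in in9, a pairing that was not planned beforehand. Ratios of other pairs were computed and are not given here. Socs6, the most abundant member, which binds the receptor KIT and insulin receptor substrates, ranged from 38.79 to 46.04 TPM across LV2 and from 37.29 to 40.74 TPM across in9 (log2 fold change -0.14 ± 0.08 SE, interval -0.33 to 0.05, adjusted p = 0.372 in limma). A processed pseudogene on the same strand within Socs6 was at 0.65 to 2.03 TPM, and no other gene that overlaps a member exceeded 0.3 TPM. Socs7, which also binds insulin receptor substrates, ranged from 7.1 to 9.12 TPM across LV2 and from 7.45 to 8.6 TPM across in9. Its log2 fold change was 0.03 ± 0.11 (SE, interval -0.24 to 0.31), and it turned to -0.04 with trimmed-mean factors and to -0.08 with quantile normalization.

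The make-up of the family by summed TPM is given as a description. Socs6 held 36.0%, 39.0% and 36.4% of the summed TPM of the 8 genes in LV2 and 29.9%, 30.7% and 29.5% in in9. The share of Socs3 was 17.9%, 16.8% and 18.1% in LV2 and 24.9%, 21.9% and 23.1% in in9. Shares within a sum depend on each other, so the rise of 1 gene lowers the others. The summed TPM was 125.8, 117.99 and 106.48 in LV2 and 124.61, 132.52 and 133.34 in in9, and the groups overlapped.

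**Figure D4:**
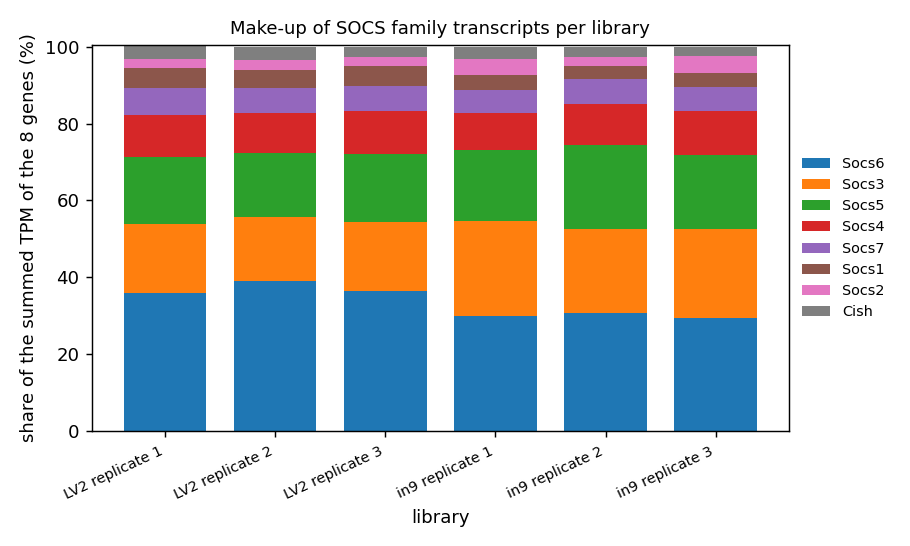
Share of each gene in the summed TPM of the 8 SOCS family genes (%) in each library. The Socs6 share is 36.0% to 39.0% in LV2 and 29.5% to 30.7% in in9, and the Socs3 share 16.8% to 18.1% and 21.9% to 24.9%.

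Promoters of 4 of the 8 genes (Socs1, Socs3, Socs4 and Cish) were matched in RefSeq (GRCm38.p6), each from 250 bases before to 50 after the start that RefSeq gives. The STAT motif TTCNNNGAA, which reads the same on both strands, was found in 2 of the 4, and in 8.3% of 32851 promoter windows of that length. The window of Socs3, the called member, is shown with the motif in capitals.
Socs3 promoter, chr11:117969317-117969616, minus strand: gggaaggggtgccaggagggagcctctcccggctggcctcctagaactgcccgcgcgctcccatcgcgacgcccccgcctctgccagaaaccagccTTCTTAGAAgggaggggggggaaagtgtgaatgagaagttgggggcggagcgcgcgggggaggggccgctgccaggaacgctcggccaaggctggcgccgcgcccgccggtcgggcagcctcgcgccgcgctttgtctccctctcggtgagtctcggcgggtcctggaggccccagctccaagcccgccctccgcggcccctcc
The match in Socs3 began 154 bases before the RefSeq start. In GENCODE M21 this window lies within the span of the gene, since a non-coding transcript begins farther upstream, and it lies upstream of the coding transcript. The window of Cish held 2 matches, beginning at bases 1 and 12 counted from the RefSeq start, and it lies within the first exon of a longer GENCODE M21 transcript. Of all windows, 0.457% held at least 2. The form with 1 more base in its centre was in none of the 4 windows and in 6.95% of all. A match is a description of the letters in the window, and binding was not measured.

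Around the family, 139 other genes of 11 lists of pathway members were tested, and 10 were called higher and 1 lower in limma, where the shares over all tested genes were 0.821% and 0.194%. Their median log2 fold change was 0.13, and that of all tested genes 0.06. Leaving out in9 replicate 1 gave 28 called genes among these 139, with 1480 called of the 13386 genes tested in that fit, and leaving out each of the remaining libraries in turn gave 1 to 2. The 10 tested Janus kinase and STAT genes had fold changes above 0 (median log2 value 0.23), as did 63.7% of all tested genes. Among these 10, Stat2, which acts in type I interferon signalling, rose from 26.0 ± 1.79 to 39.9 ± 3.39 TPM (SD, n = 3). Stat3, the main STAT downstream of interleukin-6 and named here after its values were seen, ranged from 26.96 to 30.65 TPM across LV2 and from 36.28 to 40.42 TPM across in9 and missed the threshold (log2 fold change 0.4 ± 0.07 SE, adjusted p = 0.061 in limma). Of 10 tested cytokines, Il6 (2.24 ± 0.286 to 5.92 ± 0.685 TPM) and the granulocyte factor gene Csf3 (429 ± 8.82 to 525 ± 20.9 TPM) rose and none fell. Of 14 tested cytokine receptors none was called in limma, and without adjustment p was under 0.05 for 6 with positive and none with negative fold changes. The shares of all tested genes with such a p are 13.6% with positive and 5.86% with negative fold changes, here and for the lists below. The smallest p-values there were those of the interferon receptor genes Ifnar2 (log2 fold change 0.34, adjusted p = 0.0816) and Ifnar1 (0.3, adjusted p = 0.122). Il6st, the shared receptor chain that SOCS3 binds, also named after its values were seen, differed by 0.13 ± 0.12 on the log2 scale (SE, adjusted p = 0.586 in limma).

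Of 22 tested STAT3 targets the iron-binding protein gene Lcn2 (log2 fold change 1.05 ± 0.07 SE) and the transcription factor gene Cebpd (0.72 ± 0.10) were called higher and none lower. The list median was 0.24. At an unadjusted p under 0.05 in limma, 12 had a positive and 2 a negative fold change. Of 8 tested STAT5 targets none was called in limma, and without adjustment p was under 0.05 for 4 with positive and 3 with negative fold changes. The lowest p-values were those of the transcription regulator gene Id1 (log2 fold change 0.45) and the cyclin D1 gene Ccnd1 (-0.17).

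None of 16 tested other inhibitors of cytokine signalling was called in limma, where 4 had a positive and none a negative fold change at an unadjusted p under 0.05. The interferon-induced inhibitor gene Usp18 (57.1 ± 5.08 and 79.4 ± 5.60 TPM, SD, n = 3) had an adjusted p of 0.0601, and the phosphatase gene Ptpn6 differed by 0.22 on the log2 scale (adjusted p = 0.1). A list of 10 genes held subunits and partners (such as Nedd8) of the ubiquitin ligases that work with SOCS box proteins. Of these 10, Rbx1 fell from 69.6 ± 0.901 to 53.8 ± 1.73 TPM and none rose, with a list median of -0.05. Rbx1 encodes the RING protein of cullin 2 ligases, and Nedd8 followed by p (log2 fold change -0.09, adjusted p = 0.319 in limma). Rnf7, the RING protein that pairs with cullin 5 and was named after its values were seen, had a log2 fold change of 0.04 ± 0.09 (SE). Among 16 other SOCS box proteins limma called none, and 2 had a positive and 1 a negative fold change at an unadjusted p under 0.05, which is near the shares over all tested genes (13.6% and 5.86%). The smallest p-values there were those of Spsb2 (log2 fold change 0.44) and Lrr1 (-0.47). Of 14 receptor tyrosine kinases and adaptors limma called none, and 1 had a positive and none a negative fold change at an unadjusted p under 0.05, which was Plcg1 (0.3), followed by Igf1r (0.23).

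Of 14 tested genes reported as miR-9 targets, Socs5 included, limma called none, and 4 had a positive and none a negative fold change at an unadjusted p under 0.05, where all tested genes gave 13.6% and 5.86%. The list median was 0.09, against 0.06 over all tested genes. The smallest p in that list was that of Bcl2l11, which encodes the cell death protein BIM, with 24.0 ± 0.310 TPM (LV2) and 31.7 ± 2.03 TPM (in9; SD, n = 3) (adjusted p = 0.0544 in limma), followed by Socs5.

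**Figure D5:**
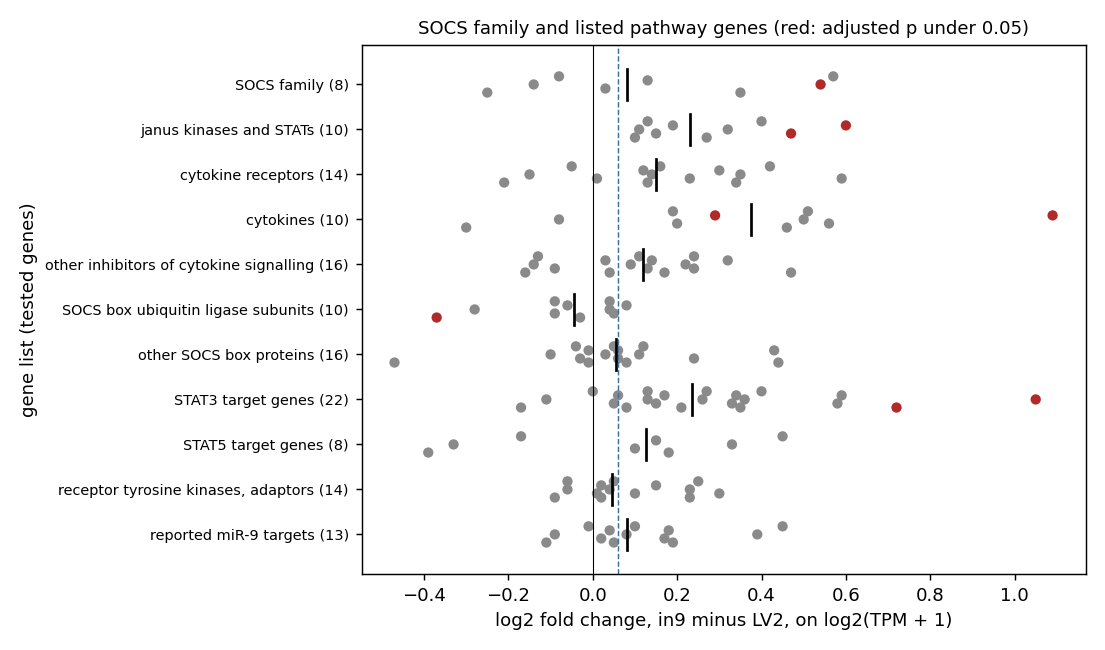
Log2 fold change, in9 minus LV2 on log2(TPM + 1), of the tested genes of the SOCS family and of 10 pathway lists (number of tested genes in brackets, with Socs5 shown in the family only); red points have an adjusted p under 0.05, black bars are list medians and the dashed line is the median of all tested genes. Of the lists shown, the cytokines have the highest median, 0.37. The ubiquitin ligase list, of subunits and partners such as Nedd8, holds the called lower gene Rbx1.

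The genes whose profile over the 6 libraries was most like that of Socs3 were C1ra, a complement protease gene, Gstt3, a glutathione transferase gene, and Pnrc1, a nuclear receptor coactivator gene. Likeness was the root mean square difference of log2(TPM + 1) values, each taken minus its LV2 mean, over 9388 genes whose mean TPM reached 5, and it was 0.049, 0.057 and 0.058 for these genes. Most like Socs5 were the stress kinase gene Map3k5 (0.029), the transcription factor gene Klf11 (0.030) and the phospholipase gene Pla2g4a (0.040). Map3k5 had 6.39, 5.5 and 5.28 TPM in LV2 and 6.77, 8.31 and 7.7 TPM in in9. In9 replicate 1 was the lowest in9 library there as in Socs5, which follows from picking the gene by its likeness. C1ra had 4.72, 3.83 and 3.97 TPM in LV2 and 6.34, 6.09 and 7.04 TPM in in9.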

How the data were processed

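Deposited by the authors was 1 table of TPM for 56448 genes in 6 libraries, with group means that equalled the means of the libraries within 3.33e-05. The submitters' processing notes name mm10; aligner, quantifier, annotation and strandedness are not stated there or in the labels. No counts were used, so counting error is unknown. Log2(TPM + 1) values of the 13406 genes whose mean TPM reached 1 entered a model in limma 3.58.1 (R 4.3.3, intensity trend), in9 minus LV2, two-sided and without a replicate block, and p-values were adjusted by Benjamini-Hochberg over all of them (threshold 0.05). The main fit was tested on simulated data. The changes planted there were larger than those of the members, so that test does not bear on calls such as that of Socs3. An exact permutation of 3 against 3 libraries cannot go below 0.1, so the members rest on limma. Gene models came from GENCODE M21, and tables were joined in pandas 2.3.3 (python 3.11.15).

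The members and the gene lists were chosen with earlier results of these data known. Named genes were all members; in each list the called genes, filled up to 2 by smallest p; and the 3 nearest profiles of each called member and of Socs5, leaving out clone and predicted names. Others are marked as named after their values were seen. The settings varied were the pseudocount (0.1), the filter (none, or a mean TPM of 5), the scaling (trimmed-mean, quantile, or TPM without mitochondrial genes), the intensity trend, weights per library, a block for replicate number, and the omission of each library. The counts over the 11 pathway lists include 1 list and 1 gene that are not reported here.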

Additional observations from a re-analysis of the deposited data

How the results depend on the processing

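The direction of Socs1 to Socs6 and Cish was the same under all alternatives that tested them (Socs2 and Cish were not tested at a minimum mean TPM of 5). Socs7 turned from 0.03 to -0.04 after trimmed-mean scaling, -0.08 after quantile normalization and -0.04 without LV2 replicate 3, and lay between -0.04 and 0.12 over the omissions of 1 library. The number of members called was 0 without a filter on low values, after trimmed-mean scaling, without the intensity trend and with the replicate block, and 2 with library weights. The number of all genes called, 136, was 30, 68, 31, 2 and 1689 under these 5 alternatives in that order, and of the pathway genes, 11, it was 2, 7, 3, 0 and 41. Without 1 library the members called were 0 to 2, all genes 8 to 1480 and pathway genes 1 to 28, the highest of each without in9 replicate 1. Trimmed-mean scaling moved the median of all tested genes from 0.06 to -0.02 and the split of calls to 44 higher and 24 lower from 110 and 26. The cause of these changes was not tested. No pairing of the libraries by replicate number was visible. Deviations from the group means correlated at -0.1, 0.02 and -0.05 between libraries of the same number, and at -0.06 to 0.1 between others. These values cannot tell whether libraries of the same number were handled together, which is not stated. With the replicate block Socs3 had the same log2 fold change of 0.54, and its adjusted p in limma was 0.233. The depth is unknown, so the precision of low genes such as Cish and Socs2 rests on 3 libraries a group.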
